A study of Mus musculus with 18 samples.

Results

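The genes described here drive or mark the division cycle: 19 act in the start of S phase and DNA replication, 24 in mitosis, and 5 control the passage through G1. They were chosen by name, and each stands for the probe set that varied most across all arrays among those that the chip annotation gives to that gene alone. Of the 48 listed genes, 47 were measured, out of 18193 genes in all: 19 of 19 S phase genes, 23 of 24 mitosis genes and 5 of 5 G1 genes. Ccnb1, which encodes cyclin B1, the cyclin that takes cells into mitosis, is not analysed here.

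RNA of freshly sorted CD4 T cells from lymph nodes and spleen of B6;129 mice was measured on 18 Affymetrix mouse arrays in 7 groups. All mice were heterozygous at Foxp3, an X-linked gene whose product sets the identity of regulatory T (Treg) cells: one allele carried the hCD2 reporter and the other, always wild type, the GFP reporter. In the mutants the hCD2 allele carried 1 of 3 substitutions, A384T, I363V or R397W, all in the forkhead domain through which Foxp3 binds DNA.

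In FoxP3 WT:hCD2/WT:GFP mice, 3 populations were sorted: conventional T cells (Tconv) with neither reporter (2 arrays), hCD2+ GFP- wild-type Treg cells (WT hCD2, 2 arrays, numbered 3 and 4) and GFP+ wild-type Treg cells (WT GFP, 2 arrays). Mice with A384T on the hCD2 allele gave hCD2+ cells (A384T, 3 arrays) and GFP+ cells that express wild-type Foxp3 (WT GFP of A384T mice, 3 arrays). The hCD2+ cells of I363V and of R397W mice were measured on 3 arrays each. Every mutant population therefore lived beside wild-type Treg cells in its host, and Tconv were set apart by the lack of both reporters and not by an activation marker.

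A cell that enters the cycle first relieves the E2F transcription factors of their inhibition by the Rb protein, through cyclin D kinases that inhibitors such as p27 and p18 hold back. E2F then raises the genes that license replication origins and make nucleotides, and later the B-Myb and FoxM1 complexes raise the mitotic cyclins, kinesins and checkpoint kinases. Treg cells in lymphoid organs of healthy mice divide more than naive T cells, and the proliferation marker Ki-67 is commonly used to find the dividing ones.

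Values are on the log2 scale and set against the Tconv mean of the same probe set, so levels cannot be set between genes and a value of 0 is the Tconv mean, not absence. The labels do not say that arrays of a group are separate animals, and each p measures the spread between these samples, which may be technical. In sorted bulk RNA, fewer dividing cells and less cycle RNA in each dividing cell cannot be told apart. Foxp3 was between 6.38 and 7.59 on all 16 Treg arrays. The labels number the arrays of a group but do not say whether equal numbers mark 1 mouse. Differences are given ± SE from limma, and a gene was called where its Benjamini-Hochberg adjusted p over all 18193 genes was under 0.05.

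A few promoters are shown to make visible the sites known from genes of these classes, which not every member holds. RefSeq windows (GRCm38.p6) of 250 bases before to 50 after the start were matched by symbol to 39 of the 48 genes. The E2F letters TTTCCCGC, TTTCGCGC, TTTGCCGC or TTTGGCGC, searched on both strands, were found in 7 of 16 S phase windows (43.8%), in 1 of 19 mitosis windows (5.3%) and in 2.6% of all 27025 genes with a window. The letters TTTGAA of the cell cycle homology region (CHR), at which the B-Myb and DREAM complexes bind, were in 13 of 19 mitosis windows (68.4%), 1 of 16 S phase windows (6.2%) and 20.2% of all genes. CCAAT, the site of NF-Y, was in 89.5% of mitosis windows, 56.2% of S phase windows and 41.1% of all genes. None of the 4 G1 windows held the E2F or the CHR letters. Matches on opposite strands may overlap, and a match is a description of letters and not of binding.

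The last 200 bases before the start follow for 4 members, 5′ to 3′ along the gene, with matches in capitals. Mcm6, a helicase subunit that was called in the comparison of Treg cells with Tconv, lies at chr1:128359706-128359905 on the minus strand and has 3 E2F matches, 2 of them overlapping, and 2 CCAAT matches on the opposite strand. Cdk1, the mitotic kinase whose values followed those of the other members most closely, lies at chr10:69352913-69353112 on the minus strand and has all 3 kinds, with CHR matches beginning 71 and 15 bases before the start. Ccnb2 (cyclin B2) at chr9:70421555-70421754, minus strand, has in these bases 1 CHR match 167 bases before the start and 3 CCAAT matches. A further CHR match of Ccnb2 begins at position 5 from the start, past the bases shown. Kif11, the kinesin that pushes spindle poles apart, at chr19:37376182-37376381, plus strand, has a CHR match on the opposite strand 19 bases before the start and a CCAAT match 45 bases before it.
Mcm6: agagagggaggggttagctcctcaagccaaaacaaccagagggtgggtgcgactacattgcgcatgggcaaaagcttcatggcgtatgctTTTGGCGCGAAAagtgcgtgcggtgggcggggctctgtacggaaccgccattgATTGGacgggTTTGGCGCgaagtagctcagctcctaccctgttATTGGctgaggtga
Cdk1: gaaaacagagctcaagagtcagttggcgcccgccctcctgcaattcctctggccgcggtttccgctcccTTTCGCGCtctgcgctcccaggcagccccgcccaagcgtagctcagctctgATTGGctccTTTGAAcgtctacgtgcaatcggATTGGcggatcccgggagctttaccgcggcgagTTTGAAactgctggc
Ccnb2: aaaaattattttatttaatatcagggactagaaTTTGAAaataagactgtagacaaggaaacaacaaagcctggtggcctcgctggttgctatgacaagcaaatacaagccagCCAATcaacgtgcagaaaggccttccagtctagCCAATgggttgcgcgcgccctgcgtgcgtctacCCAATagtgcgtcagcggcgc
Kif11: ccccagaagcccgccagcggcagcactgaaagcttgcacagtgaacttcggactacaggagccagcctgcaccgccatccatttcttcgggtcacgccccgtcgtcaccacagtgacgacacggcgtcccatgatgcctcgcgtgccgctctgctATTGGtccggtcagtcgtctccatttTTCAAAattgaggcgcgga

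The members moved together from array to array within a group, and the mitosis genes most of all. After each group's mean was taken off, the mean correlation between pairs of mitosis genes over the 18 arrays was 0.62, between pairs of S phase genes 0.39, between an S phase and a mitosis gene 0.48, and between G1 genes 0.02, beside 0.01 over all genes. These are descriptions: the points share their arrays, RNA and normalization. The median of the 23 mitosis genes was 0.18 and 1.05 in WT GFP (arrays 1 and 2), and 0.26 and 1.15 in WT hCD2 (arrays 3 and 4). It was -0.07, 1.26 and 0.07 on the WT GFP arrays of A384T mice and -0.30, 0.45 and -0.42 on the A384T arrays, so array 2 stood high in both groups of these mice. It was 0.21, 0.50 and -0.13 for I363V and 0.79, 0.26 and 0.01 for R397W. The 19 S phase genes had medians of 0.30 and 0.73 for WT GFP, 0.35 and 0.81 for WT hCD2, and 0.05, 0.86 and 0.06 for WT GFP of A384T mice. Their medians were -0.11, 0.35 and 0.07 for A384T, 0.48, 0.17 and 0.28 for I363V, and 0.95, 0.20 and 0.11 for R397W. The spread within groups was as wide as the distance between most groups: the pooled SD of an array's median was 0.51 for mitosis and 0.34 for S phase genes.

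**Figure D1:**
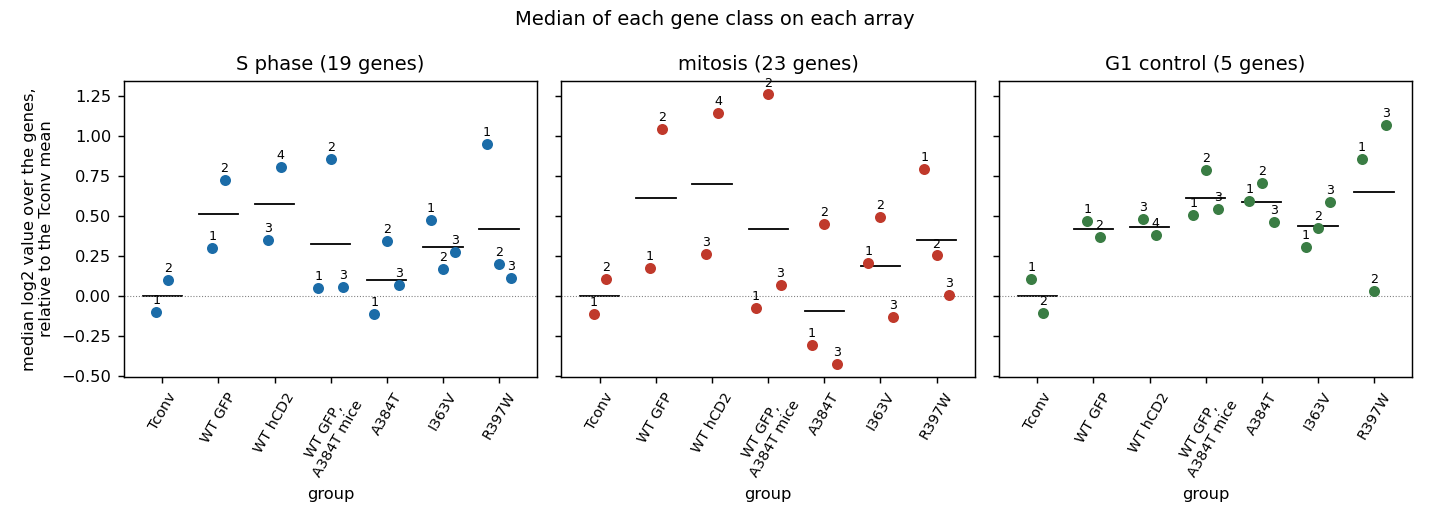
Median log2 value of the S phase (19), mitosis (23) and G1 control (5) genes on each array, relative to the Tconv mean; points are arrays with their number, bars the mean of a group. The arrays of a group lie far apart for mitosis genes, from -0.07 to 1.26 for WT GFP of A384T mice, and the G1 medians do not follow the same order.

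Array 2 of the WT GFP cells of A384T mice was above its group mean for 42 of 47 members, array 2 of A384T for 42, array 1 of R397W for 44, array 2 of WT GFP for 40 and array 4 of WT hCD2 for 35. Over all genes, between 43.9% and 59.2% were above the group mean on any Treg array. Cdk1 followed the mean of the other members most closely (r = 0.98 across 18 arrays, after group means were taken off), then Nusap1 (0.97), Kif11 (0.96) and Ccna2 (0.96). Cdc25b (0.10), Tyms (0.05), Foxm1 (-0.07) and Cenpa (-0.22) did not follow them, nor did the D cyclins Ccnd2 (-0.20) and Ccnd3 (-0.33). Markers of other cells moved with array 2 of the A384T mice as well: the summed log2 value of 12 myeloid genes was -8.17, 2.73 and -7.12 on the WT GFP arrays of these mice and -10.76, 0.12 and -10.36 on the A384T arrays. The summed values of 10 B and plasma cell genes were -2.83, 3.35 and -1.78, and -2.79, 2.45 and -2.0, in the same order. The other arrays high for the members had myeloid sums below the rest of their group. These sums were -1.31 on WT GFP 2 against -0.17 on array 1, and 0.04 on WT hCD2 4 against 1.96 on array 3. R397W 1 had -17.03, against -13.51 and -14.62 on arrays 2 and 3. The B and plasma cell sums were -1.52 against 1.05, -0.24 against 1.99, and -1.96 against -2.95 and -1.24. Because values are centred on Tconv, which of these markers are absent cannot be read, and their part in the members' values was not tested.

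**Figure D2:**
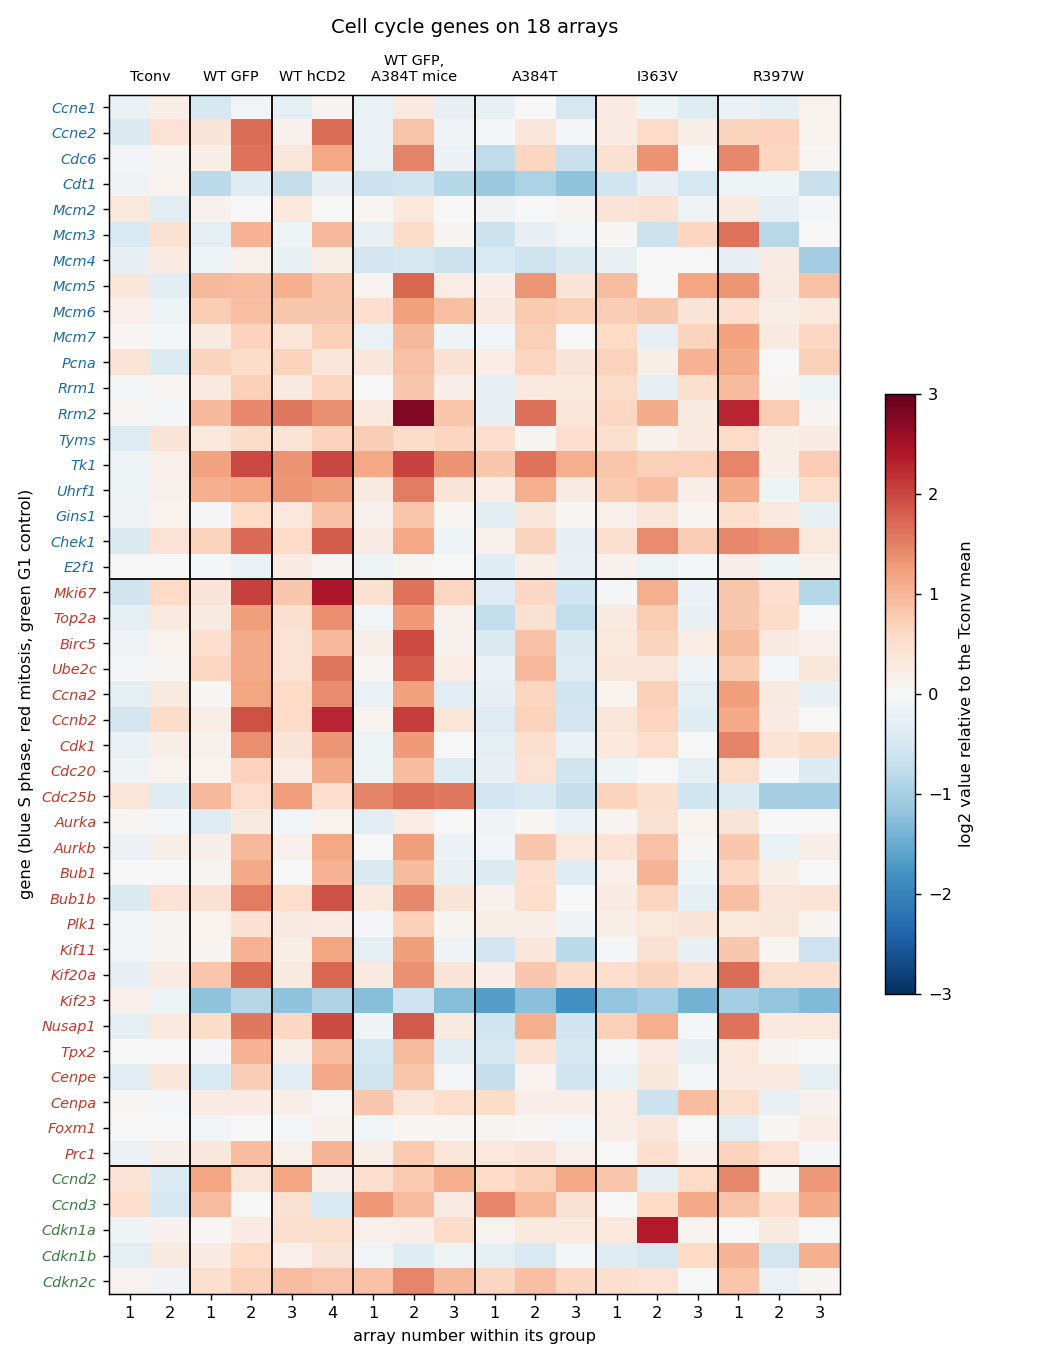
Log2 values of the 47 genes (rows, by class) on the 18 arrays (columns, by group), relative to the Tconv mean, in red above 0 and blue below it. Columns such as WT GFP 2, WT hCD2 4, both arrays numbered 2 of A384T mice and R397W 1 are red over most S phase and mitosis rows, whereas Kif23 is blue in all Treg columns.

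The first comparison asked how wild-type Treg cells (2 WT GFP and 2 WT hCD2 arrays) differ from Tconv. Tk1, thymidine kinase of the salvage path to dTTP, and Mcm6 rose, and Kif23, a kinesin of the central spindle needed for cytokinesis, fell; the other 44 members did not pass the test. Of the 47 members, 2 were called higher and 1 lower, beside 3.81% and 2.03% of all genes. Both counts lie near the share of all genes. The median difference of the members was 0.61 against -0.01 over all genes, and 41 members had a positive difference. The arrays of both groups did not overlap for 21 members with higher values in Treg cells, beside 13.3% of all genes, and for 2 with lower values (Cdt1 and Kif23), beside 13.1%.

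Tk1 was at -0.15 and 0.15 in Tconv, at 1.21 and 1.99 in WT GFP and at 1.35 and 1.99 in WT hCD2. All 4 Treg arrays lay above both Tconv arrays, and the difference was 1.64 ± 0.34 (3.11-fold, limma adjusted p = 0.00846). Mcm6 was at 0.16 and -0.16 in Tconv, 0.75 and 0.89 in WT GFP, and 0.80 and 0.81 in WT hCD2. The Treg arrays lay close together and all above Tconv, with a difference of 0.81 ± 0.19 (limma adjusted p = 0.02). Kif23 was at 0.15 and -0.15 in Tconv, -1.22 and -0.87 in WT GFP, and -1.20 and -0.90 in WT hCD2. Kif23 fell by 1.05 ± 0.21 (2.07-fold, limma adjusted p = 0.00609), whereas 20 of 23 mitosis genes had a positive difference. The calls rested on single arrays: without Tconv array 1 the limma adjusted p became 0.103 for Tk1 and 0.101 for Kif23, and that of Mcm6 became 0.281 without Tconv array 2 and 0.0608 without WT GFP array 2. With equal numbers of WT GFP and Tconv taken as a block, 30 members were higher and 2 lower, beside 12.3% and 6.11% of all genes, but 2 pairs do not establish that pairing. That fit used only these groups and left very few residual degrees of freedom. The mean over all 3 probe sets of Mcm6 gave 0.44 (limma adjusted p = 0.0667), and that of Kif23 -0.42 (limma adjusted p = 0.0471).

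Among the S phase genes that did not pass, Rrm2, the regulated subunit of ribonucleotide reductase, had a difference of 1.35 ± 0.66. Uhrf1, which helps copy DNA methylation, had 1.21 ± 0.37 (limma adjusted p = 0.0827), and Chek1, the kinase of the replication checkpoint, 1.20 ± 0.48. Mki67, which encodes Ki-67, had 1.42 ± 0.63 (limma adjusted p = 0.291), with Tconv at -0.59 and 0.59, WT GFP at 0.39 and 2.06 and WT hCD2 at 0.81 and 2.43. One Tconv array thus lay above one WT GFP array for Mki67. The mitosis genes next in size were Ccnb2 at 1.25 ± 0.65, Nusap1, a spindle microtubule bundler, at 1.18 ± 0.63, and the kinesin Kif20a at 1.13 ± 0.43. Of the G1 genes, Cdkn2c (p18, an inhibitor of cyclin D kinases) had 0.74 ± 0.24 and Ccnd2 (cyclin D2) 0.74 ± 0.43.

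Of other genes of these classes, named separately, 1 of 33 S phase genes, 2 of 46 mitosis genes and 3 of 21 G1 genes were called higher in Treg cells and none lower, beside 3.81% and 2.03% of all genes, so that the S phase and mitosis counts lie near the share of all genes. E2f2, an activating E2F, rose by 1.16 ± 0.18, Melk, a mitotic kinase, by 1.76 ± 0.37, and Cks2, a Cdk1 partner, by 1.46 ± 0.27. Of the G1 genes, Cdk6, a cyclin D kinase, rose by 1.26 ± 0.15, the kinase inhibitor Cdkn1c (p57) by 0.89 ± 0.22 and E2f3 by 0.87 ± 0.17. The wild-type arrays did not vary independently across groups: over all genes the deviations of WT GFP array 1 and WT hCD2 array 3 from their group means correlated at 0.77, those of WT GFP 1 and Tconv 1 at 0.71 and those of WT hCD2 3 and Tconv 1 at 0.72, with the other array of each group as the mirror image. Of the markers of other cells, Cd79b and Xbp1 of 10 B and plasma cell genes were called higher in Treg cells, Eomes and Prf1 of 9 CD8 and NK genes lower, Gata1 of 7 erythroid genes higher, and none of 12 myeloid or 8 T cell genes.

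**Figure D3:**
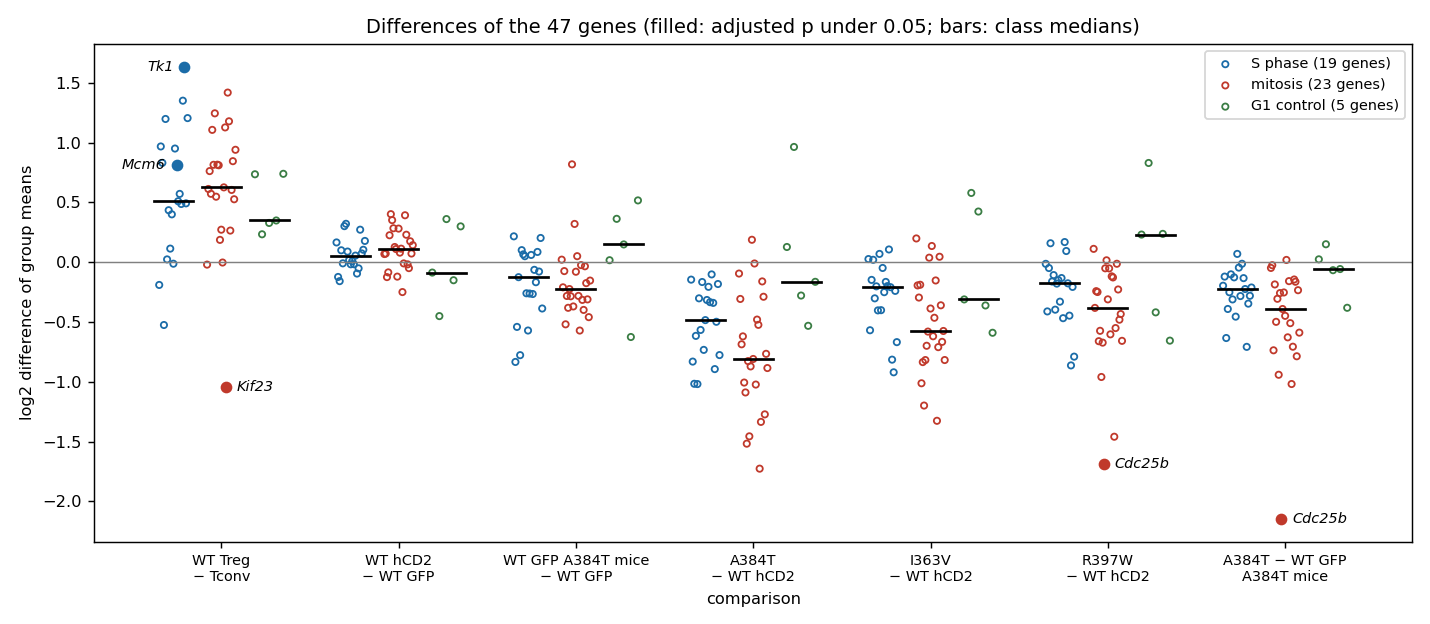
Log2 differences of the 47 genes in 7 comparisons, by class; open points are single genes, filled and named points passed the adjusted threshold of 0.05, and bars are class medians. The mitosis median is 0.63 for wild-type Treg cells against Tconv and -0.81 for A384T against WT hCD2, with most genes of the class above 0 in the former and below 0 in the latter.

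WT hCD2 and WT GFP cells of mice of the same genotype carry the same Foxp3 protein and differ in the reporter. None of the 47 members was called, nor was any gene (0% in either direction); 0 members and 462 of all genes had an unadjusted p under 0.05 in limma. The median difference was 0.07, running from -0.18 without WT GFP array 1 to 0.40 without WT GFP array 2, and the members ran from -0.45 to 0.40. The arrays did not overlap for 4 members with higher values in WT hCD2 (Cdkn1a, Cdkn2c, E2f1 and Uhrf1) and for Cenpa with lower values, beside 17.4% and 9.14% of all genes. Among mitosis genes the largest differences were those of Ccna2 (cyclin A2) at 0.40 ± 0.60, Mki67 at 0.39 ± 0.73, Ccnb2 at 0.35 ± 0.75 and Cdc20, an activator of the anaphase-promoting complex, at 0.28 ± 0.44. Among S phase genes they were those of Gins1, a helicase cofactor, at 0.32 ± 0.32, E2f1 at 0.30 ± 0.17, Rrm2 at 0.27 ± 0.77 and Uhrf1 at 0.18 ± 0.43. Ccnd3 (cyclin D3) had -0.45 ± 0.49, and Cdkn1a, which encodes the p53-induced inhibitor p21, had 0.36 ± 0.49.

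WT GFP cells of A384T mice were compared with WT GFP cells of wild-type mice to ask whether the mutant neighbours or host go with a change in wild-type cells. Again no member and no gene was called (0% in either direction; 1 member and 473 of all genes at an unadjusted p under 0.05 in limma), with a median of -0.17 for the members, which ran from -0.54 to 0.14 as single arrays were left out. The member with the unadjusted p was Cdc25b, the phosphatase that activates cyclin-dependent kinases at mitotic entry, at 0.82 ± 0.34 (limma adjusted p = 1). All 3 arrays of A384T mice lay above both of wild-type mice for Cdc25b, Cdkn2c (0.52 ± 0.25) and Cenpa, the centromere histone, and below for Mcm4 (-0.57 ± 0.27) and Cdkn1b, which encodes the inhibitor p27 (-0.63 ± 0.41): 3 higher and 2 lower, beside 11.1% and 7.65% of all genes. Ccne2 (cyclin E2) had -0.83 ± 0.46, Chek1 -0.78 ± 0.50, Cdc6, an origin licensing factor, -0.54 ± 0.61, Kif20a -0.57 ± 0.46, the checkpoint kinase Bub1 -0.52 ± 0.47 and the spindle assembly factor Tpx2 -0.46 ± 0.41.

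The mutants were each set against WT hCD2, the wild-type cells with the same reporter; all 3 comparisons share the 2 WT hCD2 arrays. Most members were lower in each mutant, and 1 of 47 passed the test in 1 mutant. For A384T, 44 of 47 members had a negative difference, with a median of -0.53 against -0.02 over all genes, and none was called (0.137% of all genes higher, 0.143% lower); 8 members and 1469 of all genes had an unadjusted p under 0.05. The mitosis median was -0.81 and the S phase median -0.48. For I363V the median over members was -0.31, 37 of 47 were negative and none was called (0.231% of all genes higher, 0.682% lower; 3 members and 1626 of all genes at an unadjusted p under 0.05). For R397W it was -0.24, 39 of 47 were negative and 1 was called lower, Cdc25b (0.715% of all genes higher, 1.55% lower). That count lies near the share of all genes.

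The WT hCD2 arrays lay far apart for Mki67 and most other mitosis genes; the SE of a gene pools its spread over all 7 groups. Mki67 was at -0.38, 0.63 and -0.59 in A384T, at -0.02, 1.08 and -0.19 in I363V and at 0.80, 0.51 and -0.85 in R397W, against 0.81 and 2.43 in WT hCD2. All A384T and R397W arrays lay below both WT hCD2 arrays, with mean differences of -1.73 ± 0.67 for A384T (3.31-fold, limma adjusted p = 0.515) and of -1.46 ± 0.67 for R397W (limma adjusted p = 0.409; its highest array was level with the lower WT hCD2 array), whereas I363V array 2 lay between them. Ccnb2 had differences of -1.52 ± 0.69 in A384T, -1.20 ± 0.69 in I363V and -0.96 ± 0.69 in R397W. Nusap1 had -1.34 ± 0.67 in A384T. Bub1b, the spindle checkpoint protein BubR1, had -1.01 ± 0.45 and Ccna2 -0.84 ± 0.55 in I363V, and Cdc20 had -0.67 ± 0.40 in R397W. Without WT hCD2 array 4, the higher of the pair, the mitosis median went from -0.81 to -0.37 for A384T, from -0.58 to -0.04 for I363V and from -0.38 to 0.02 for R397W. The median over all members then went to -0.30, -0.06 and -0.02, in the same order.

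Of the S phase genes, Chek1 had -1.02 ± 0.50, Cdc6 -1.02 ± 0.61, Rrm2 -0.89 ± 0.70 and Ccne2 -0.83 ± 0.46 in A384T. In I363V, Tk1 had -0.92 ± 0.36, Rrm2 -0.82 ± 0.70, Uhrf1 -0.67 ± 0.39 and Ccne2 -0.57 ± 0.46. In R397W, Tk1 had -0.86 ± 0.36, Uhrf1 -0.79 ± 0.39, Mcm6 -0.47 ± 0.20 and Rrm2 -0.45 ± 0.70. Tk1 was at 0.82, 1.63 and 1.08 in A384T, 0.84, 0.71 and 0.71 in I363V, and 1.46, 0.20 and 0.77 in R397W, so that every mutant array stayed above both Tconv arrays and every I363V array lay below both WT hCD2 arrays. Mcm6 was at 0.29, 0.79 and 0.72 in A384T, 0.73, 0.80 and 0.39 in I363V and 0.50, 0.20 and 0.30 in R397W. Every mutant array was below both WT hCD2 arrays for Mcm6, with the highest I363V array nearly level with the lower of them.

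The arrays of the compared groups did not overlap for 12 members lower and none higher in A384T, beside 14.9% and 10.8% of all genes, for 7 lower and none higher in I363V, beside 13.6% and 10.3%, and for 6 lower and 1 higher in R397W, beside 13.0% and 9.26%. The counts of lower members in I363V and R397W lie near the share of all genes. The one higher member was Ccnd3. It was at 0.47 and -0.45 in WT hCD2, at 1.46, 0.99 and 0.47 in A384T, at 0.02, 0.61 and 1.14 in I363V and at 0.86, 0.54 and 1.12 in R397W. Its differences were 0.96 ± 0.44 in A384T, 0.58 ± 0.44 in I363V and 0.83 ± 0.44 in R397W, and Ccnd3 was at 0.93 and -0.01 in WT GFP, 1.30, 0.92 and 0.24 in WT GFP of A384T mice and 0.52 and -0.52 in Tconv. For Ccnd3 the arrays Tconv 1, WT GFP 1 and WT hCD2 3 were the higher of their groups, the reverse of the order seen for most members. Cdkn2c was at 0.92 and 0.86 in WT hCD2, above all I363V arrays (0.48, 0.43 and -0.01) and all R397W arrays (0.82, -0.20 and 0.08), with differences of -0.59 ± 0.25 and -0.66 ± 0.25. Cdkn1b had -0.53 ± 0.41 in A384T. Without R397W array 1, Cdkn2c passed the test in R397W, with -0.95 (limma adjusted p = 0.0378).

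Of the other genes of the pathway, none of 33 S phase, 46 mitosis and 21 G1 genes was called in A384T or I363V against WT hCD2. In R397W, E2f2 fell by 0.98 ± 0.19 and Rbl2, a relative of Rb that holds cells in quiescence, fell by 1.15 ± 0.24. They were 1 of 33 S phase and 1 of 21 G1 genes, beside 1.55% of all genes lower, and both counts lie near that share. No mitosis gene was called. Myeloid genes were lower beside these results: 12 of 12 had a negative difference in A384T (median -0.68, 0 called), 10 of 12 in I363V (median -0.39, 0 called) and 12 of 12 in R397W (median -0.87, 2 called lower, Lyz1 and Lyz2). Of the other markers, Cd22 of 10 B and plasma cell genes was called lower in I363V (8 of 10 negative, median -0.36) and Gata1 of 7 erythroid genes lower in R397W. The summed myeloid values ranged from 0.04 to 1.96 in WT hCD2, -10.76 to 0.12 in A384T, -4.80 to -2.95 in I363V and -17.03 to -13.51 in R397W, and their part in the members' differences was not tested.

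A384T cells were then compared with the WT GFP cells of A384T mice, which differ from them in allele and reporter. Without regard to array numbers, Cdc25b fell by 2.15 ± 0.30 (4.43-fold, limma adjusted p = 0.0028), 1 member lower and none higher beside 0.352% and 0.170% of all genes. The median over members was -0.25 against -0.00 over all genes, and 43 of 47 were negative. In this fit the median rested on the arrays numbered 2: it was -0.02 without that of WT GFP and -0.47 without that of A384T. The arrays did not overlap for Cdc25b, Cdt1, the licensing factor that loads the replicative helicase, and Tyms, which makes dTMP, all lower, beside 6.39% of all genes, and for none with higher values, beside 4.77%. The count of these lower members lies near the share of all genes.

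Arrays of equal number in these 2 groups deviated together over all genes, with correlations of 0.69, 0.65 and 0.58, and the values are therefore also given within pairs. With the number as a block, 14 members fell and none rose, beside 3.42% and 1.81% of all genes: 4 of 19 S phase genes, 9 of 23 mitosis genes and 1 of 5 G1 genes. The block fit used only the arrays of these 2 groups, so few residual degrees of freedom remained. Its SEs and adjusted p therefore lean on the variance that limma shares across genes. A difference below 0 in all 3 pairs was found for 27 of 47 members (57.4%), beside 20.6% of all genes. The median over members was -0.16 in pair 1, -0.49 in pair 2 and -0.20 in pair 3, so pair 2, which held the high arrays, also held the widest gap. Leaving out both arrays of a number, an alternative chosen after the data were seen, left 13 members lower without pair 1, 12 without pair 2 and 7 without pair 3, and none higher.

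For Mki67 the differences were -0.84, -1.0 and -1.22 in pairs 1, 2 and 3, which are the gaps between 0.46 and -0.38, 1.63 and 0.63, and 0.63 and -0.59. It fell by 1.02 ± 0.09 with the block (limma adjusted p = 0.000391), whereas without it the arrays overlap and the limma adjusted p was 1. Top2a, the topoisomerase that untangles sister chromatids, was at -0.08, 1.28 and 0.14 in WT GFP of A384T mice and at -0.74, 0.45 and -0.74 in A384T. It fell by 0.79 ± 0.08 with the block (limma adjusted p = 0.000776), with differences of -0.66, -0.83 and -0.87 in the pairs. Ccnb2 fell by 0.94 ± 0.14, Birc5, the survivin subunit of the chromosomal passenger complex, by 0.74 ± 0.11 and Nusap1 by 0.71 ± 0.09. Kif11 fell by 0.63 ± 0.12, Ube2c, the ubiquitin-conjugating enzyme of the anaphase-promoting complex, by 0.59 ± 0.12 and Kif23 by 0.51 ± 0.08.

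Rrm2 was at 0.30, 2.79 and 0.82 in WT GFP of A384T mice and at -0.24, 1.65 and 0.37 in A384T. The pair numbered 2 was highest in both groups, and Rrm2 fell by 0.71 ± 0.13 with the block (limma adjusted p = 0.014). Cdc6 fell by 0.63 ± 0.09 and Cdt1 by 0.39 ± 0.08. Tk1 was at 1.17, 2.04 and 1.36 against 0.82, 1.63 and 1.08 and fell by 0.35 ± 0.08 (limma adjusted p = 0.0372). Of the G1 genes Cdkn2c, at 0.87, 1.47 and 0.98 against 0.65, 0.91 and 0.62, fell by 0.38 ± 0.09 (limma adjusted p = 0.0436), and Ccnd3 had 0.15 ± 0.40 without the block. Mcm3, a helicase subunit, had -0.46 ± 0.55 without the block.

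Cdk1, at -0.14, 1.28 and 0.02 in WT GFP of A384T mice and -0.30, 0.48 and -0.19 in A384T, was lower in each pair but did not pass with the block. Pcna, the sliding clamp of DNA polymerases, was at 0.33, 0.87 and 0.46 against 0.23, 0.66 and 0.38, also lower in each pair and not called. Mcm5, another helicase subunit, was at 0.10, 1.73 and 0.23 against 0.20, 1.32 and 0.41, lower in pair 2 and higher in pairs 1 and 3.

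**Figure D4:**
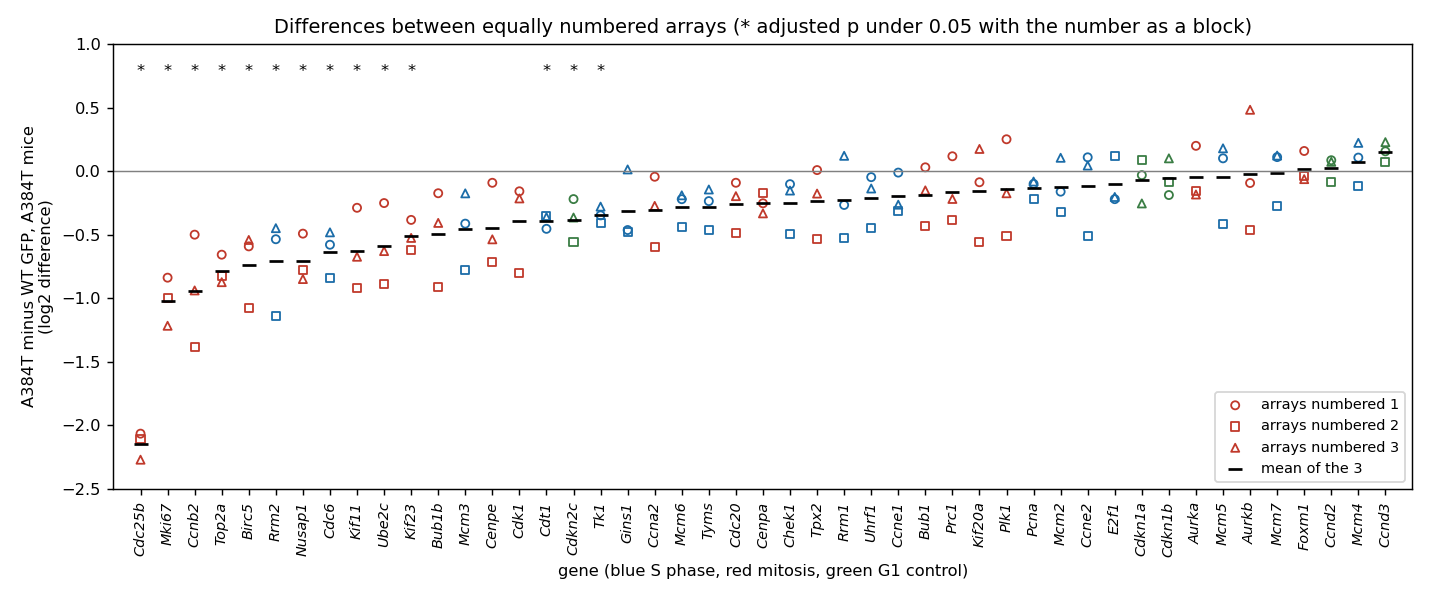
Log2 difference between A384T and WT GFP of A384T mice for the 3 pairs of equally numbered arrays, for the 47 genes in order of their mean difference; stars mark the 14 genes called with the number as a block. Cdc25b stands apart near -2.15, and Mki67, Ccnb2 and Top2a come next.

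Of the other pathway genes, 4 of 33 S phase, 8 of 46 mitosis and 1 of 21 G1 genes fell with the block, and 1 mitosis and 1 G1 gene rose, beside 3.42% lower and 1.81% higher of all genes. The largest were Pola1, a subunit of the polymerase that starts DNA strands, at -0.58 ± 0.08, Clspn, a Chek1 cofactor, at -0.46 ± 0.08 and Dbf4, the partner of the Cdc7 kinase, at -0.37 ± 0.08. Among mitosis genes they were the kinesin Kif22 at -0.86 ± 0.13, Racgap1, a partner of Kif23 in the central spindle, at -0.76 ± 0.09 and Cks2 at -0.70 ± 0.08. Sgo1, a protector of centromeric cohesion, rose by 0.45 ± 0.09, Rb1 rose by 0.37 ± 0.08 and Rbl2 fell by 0.62 ± 0.09. In the same fit 5 of 12 myeloid genes fell (Lyz1, Lyz2, Fcgr3, S100a8 and S100a9, with differences from -0.56 to -0.40), 2 of 9 CD8 and NK genes rose (Nkg7 and Prf1), and no T cell, B cell or erythroid gene was called. The summed myeloid values were lower in A384T in each pair, by the sums given above, and their part in the members' differences was not tested.

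The difference between A384T and WT GFP cells in A384T mice was also set against that between WT hCD2 and WT GFP cells in wild-type mice. No member was called in this interaction (0.0275% of all genes higher, 0.0220% lower; 1 member and 682 of all genes at an unadjusted p under 0.05 in limma), and the median over members was -0.39, running from -0.65 without WT GFP array 2 to -0.12 without array 2 of WT GFP of A384T mice. Cdc25b had the largest value, -2.28 ± 0.48 (limma adjusted p = 0.173). Mki67 had -1.41 ± 0.94, Ccnb2 -1.29 ± 0.97 and Top2a -0.96 ± 0.68, and of the S phase genes Rrm2 had -0.98 ± 0.99, Gins1 -0.63 ± 0.41, Cdt1 -0.49 ± 0.27 and Cdc6 -0.48 ± 0.87. Cdkn2c had -0.68 ± 0.36 and Ccnd3 0.60 ± 0.63. This fit pairs no arrays. With the A384T pairs as a block and the wild-type arrays unpaired, an alternative chosen after the data were seen, again no member was called (0.0165% of all genes higher, 0.0220% lower; 7 members and 1126 of all genes at an unadjusted p under 0.05 in limma). In that fit Cdc25b had -2.28 ± 0.32 (limma adjusted p = 0.112), Rrm2 -0.98 ± 0.27 (limma adjusted p = 0.508) and Mki67 -1.41 ± 0.80 (limma adjusted p = 0.915). The wild-type arrays share no numbers, but WT hCD2 arrays 3 and 4 deviated with WT GFP arrays 1 and 2. Set side by side in that order, which the labels do not give, WT hCD2 minus WT GFP was 0.42 and 0.37 for Mki67, 0.35 and 0.36 for Ccnb2 and 0.21 and 0.14 for Top2a. A384T minus WT GFP was negative in all 3 pairs of A384T mice for each of these genes, which were among the mitosis genes of largest interaction. Of the other members called with the block in A384T mice, Cdt1, Tk1, Kif11, Nusap1 and Cdkn2c were also positive in both wild-type differences. Signs were mixed for Cdc6 (0.16 and -0.48), Rrm2 (0.59 and -0.05), Ube2c (-0.18 and 0.47), Cdc25b (0.28 and -0.02) and Kif23 (0.01 and -0.03). Birc5 was negative in both (-0.08 and -0.16). The interaction was not tested with such wild-type pairs.

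Cdc25b ordered the groups unlike the other members. It was at 1.49, 1.65 and 1.57 in WT GFP of A384T mice, at 1.25 and 0.51 in WT hCD2, at 0.98 and 0.53 in WT GFP and at 0.36 and -0.36 in Tconv. It was at 0.67, 0.48 and -0.60 in I363V, at -0.58, -0.45 and -0.70 in A384T and at -0.41, -1.0 and -1.02 in R397W. The A384T and R397W arrays were thus below all 7 wild-type Treg arrays and below both Tconv arrays, and I363V spanned the gap. In R397W Cdc25b fell by 1.69 ± 0.34 relative to WT hCD2 (3.22-fold, limma adjusted p = 0.0159); without WT hCD2 array 3 the value was -1.32 (limma adjusted p = 0.23), and with the 2 compared groups alone in the fit the limma adjusted p was 0.142. In A384T the difference from WT hCD2 was -1.46 ± 0.34 and did not pass (limma adjusted p = 0.122). Within A384T mice the difference was between -2.21 and -2.09 and called when any one array was left out, at limma adjusted p from 0.0115 to 0.024.

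**Figure D5:**
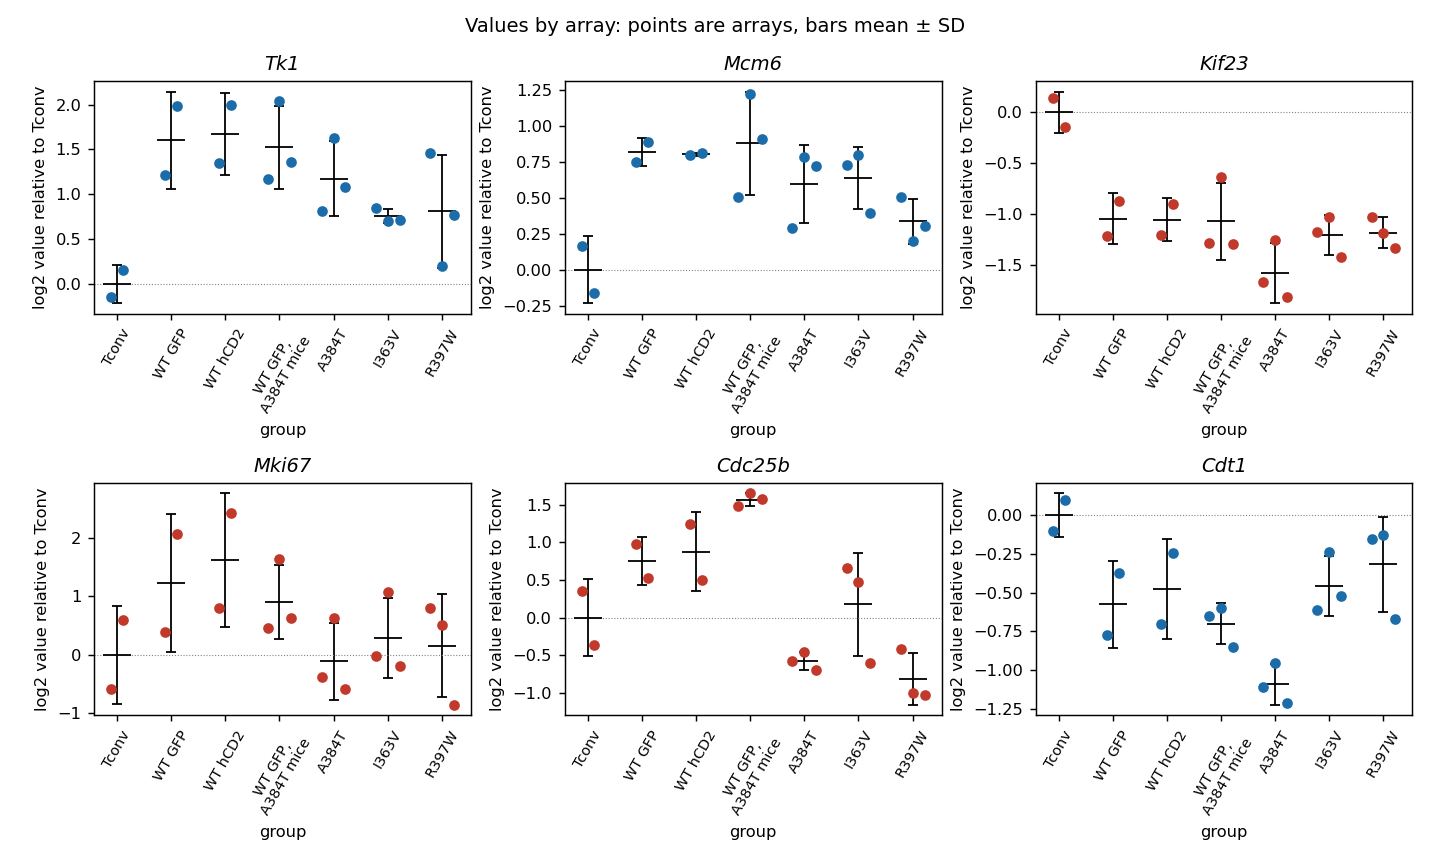
Log2 values of Tk1, Mcm6, Kif23, Mki67, Cdc25b and Cdt1 on each array, relative to the Tconv mean; points are arrays, bars the mean and SD of the 2 or 3 arrays of a group. For Cdc25b the A384T arrays (-0.70 to -0.45) lie below the WT GFP arrays of A384T mice (1.49 to 1.65).

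Between the mutants, Cdt1 was the one member called. Cdt1 was at -1.11, -0.95 and -1.22 in A384T, at -0.61, -0.24 and -0.52 in I363V and at -0.15, -0.13 and -0.67 in R397W. The A384T arrays lay below every other array of the study, for which Cdt1 was at -0.10 and 0.10 in Tconv, -0.78 and -0.38 in WT GFP, -0.71 and -0.25 in WT hCD2 and -0.65, -0.60 and -0.85 in WT GFP of A384T mice. Relative to R397W, Cdt1 fell by 0.77 ± 0.17 in A384T (limma adjusted p = 0.0248; 1 member lower and none higher, beside 0.907% and 2.22% of all genes). Cdt1 was also the one member whose arrays did not overlap, beside 9.23% of all genes lower and 10.7% higher. The call was lost without A384T array 1, 2 or 3 or R397W array 1 or 2, with limma adjusted p between 0.0545 and 0.102. It was also lost with the compared groups alone (limma adjusted p = 0.0871), and the difference was -0.44 over the mean of its 3 probe sets (limma adjusted p = 0.0355). With the number as a block the limma adjusted p was 0.139. Equal numbers did not pair these arrays, whose deviations over all genes correlated at -0.21, -0.17 and -0.09, so that fit does not bear on the call. Relative to I363V the difference in Cdt1 was -0.64 ± 0.17 (limma adjusted p = 0.124).

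The remaining differences between mutants did not pass. A384T against I363V had no member called (0.885% of all genes higher, 0.253% lower; 2 members and 1574 of all genes at an unadjusted p under 0.05 in limma) and a median of -0.19, which ran from -0.38 without A384T array 2 to -0.12 without A384T array 3. The arrays did not overlap for Aurka, Cdt1 and Mcm4, lower in A384T, and for Cdkn2c, higher, beside 8.03% and 7.87% of all genes. The largest values there were those of Cdc6 (-0.87 ± 0.55), Cdc25b (-0.76 ± 0.30), Chek1 (-0.72 ± 0.45) and Cdkn1a (-0.70 ± 0.40), followed by Nusap1 (-0.63 ± 0.60), Top2a (-0.61 ± 0.43), Ccnd2 (0.44 ± 0.40), Mcm4 (-0.44 ± 0.24) and Bub1 (-0.43 ± 0.42). A384T against R397W had a median of -0.21, which ran from -0.50 without A384T array 2 to -0.06 without R397W array 1. Its larger values were those of Cdc6 at -0.97 ± 0.55, Chek1 at -0.86 ± 0.45, Cdk1 at -0.82 ± 0.42, Top2a at -0.79 ± 0.43 and Nusap1 at -0.78 ± 0.60. In this comparison Cdkn1b had -0.77 ± 0.37, Mcm3 -0.58 ± 0.55, Ccnb2 -0.56 ± 0.61 and Cdkn2c 0.49 ± 0.23. E2f2 and Rbl2, called lower in R397W against wild type, were called higher in A384T than in R397W, by 0.77 ± 0.17 and 0.87 ± 0.21. They were 1 of 33 other S phase and 1 of 21 other G1 genes, beside 2.22% of all genes higher, and both counts lie near that share.

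I363V against R397W had no member called (0.0220% of all genes higher, 0.0605% lower; 1 member and 1550 of all genes at an unadjusted p under 0.05 in limma) and a median of -0.08, which ran from -0.22 without R397W array 3 to 0.13 without R397W array 1. The arrays overlapped for every member, whereas they did not for 5.27% of all genes in each direction. Cdc25b had 0.99 ± 0.30 (limma adjusted p = 0.297), Cdkn1a 0.84 ± 0.40, Cdkn1b -0.60 ± 0.37 and Cdk1 -0.53 ± 0.42. The values of Mcm7 (-0.37 ± 0.34), Rrm2 (-0.37 ± 0.63), Bub1b (-0.35 ± 0.41), Kif20a (-0.35 ± 0.41), Mcm6 (0.30 ± 0.18) and Mcm4 (0.28 ± 0.24) were smaller. Beside these comparisons, 2 of 12 myeloid genes, Lyz1 and Lyz2, were called lower in R397W than in either other mutant. Gata1 of 7 erythroid and Nkg7 of 9 CD8 and NK genes were called higher in A384T than in either other mutant. Of 10 B and plasma cell genes, Cd22 was called higher in A384T than in I363V and Ms4a1 lower in A384T than in R397W, and of 8 T cell genes Cd3e was called higher in A384T than in R397W. Their part in the members' differences was not tested.

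The G1 genes did not share a pattern. Cdkn1a was at 0.31, 2.38 and 0.12 in I363V, and the second of these arrays alone carried the difference of that group from the others. Elsewhere Cdkn1a was at -0.13 and 0.13 in Tconv, 0.05 and 0.25 in WT GFP, 0.48 and 0.53 in WT hCD2, 0.14, 0.21 and 0.54 in WT GFP of A384T mice, 0.11, 0.29 and 0.29 in A384T and -0.02, 0.27 and 0.02 in R397W. Without that array the difference between A384T and I363V was 0.02. Cdkn1b was high on R397W arrays 1 and 3 (1.02 and 1.07) and at -0.56 on array 2, and in I363V it was at -0.36, -0.51 and 0.61, again with the third array high. It was at -0.27 and 0.27 in Tconv, 0.25 and 0.60 in WT GFP, 0.16 and 0.39 in WT hCD2, -0.07, -0.37 and -0.16 in WT GFP of A384T mice and -0.26, -0.46 and -0.06 in A384T. Its other probe set ran against the chosen one over the arrays (r = -0.25).

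Ccnd2 was at 0.42 and -0.42 in Tconv, 1.19 and 0.37 in WT GFP, 1.18 and 0.21 in WT hCD2 and 0.51, 0.79 and 1.09 in WT GFP of A384T mice. It was at 0.59, 0.71 and 1.16 in A384T, 0.82, -0.27 and 0.59 in I363V and 1.43, 0.03 and 1.31 in R397W. The spread within wild-type and mutant groups covered the distances between them. Cdkn2c was at 0.11 and -0.11 in Tconv and at 0.47 and 0.71 in WT GFP, and unlike the D cyclins it followed the other members (r = 0.77).

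For the replication genes given by array, Pcna was at 0.40 and -0.40 in Tconv, 0.68 and 0.56 in WT GFP, 0.69 and 0.36 in WT hCD2, 0.68, 0.17 and 1.03 in I363V and 1.12, 0.02 and 0.72 in R397W. Mcm5 was at 0.33 and -0.33 in Tconv, 0.97 and 0.92 in WT GFP, 1.07 and 0.84 in WT hCD2, 0.92, 0.01 and 1.18 in I363V and 1.31, 0.27 and 0.88 in R397W. In both mutants array 2 was the low one for these genes. Rrm2 was at 0.02 and -0.02 in Tconv, 0.98 and 1.45 in WT GFP, 1.57 and 1.40 in WT hCD2, 0.63, 1.11 and 0.28 in I363V and 2.28, 0.76 and 0.08 in R397W. Here array 2 of I363V was the highest of its group, so replication genes did not all follow one order of arrays.

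Of the mitosis genes, Top2a was at -0.29 and 0.29 in Tconv, 0.26 and 1.25 in WT GFP, 0.48 and 1.39 in WT hCD2, 0.26, 0.76 and -0.22 in I363V and 0.80, 0.56 and 0.00 in R397W. Cdk1 was at -0.21 and 0.21 in Tconv, 0.12 and 1.39 in WT GFP, 0.40 and 1.34 in WT hCD2, 0.33, 0.53 and 0.00 in I363V and 1.48, 0.41 and 0.55 in R397W. Both genes put Tconv array 2 above one WT GFP array. Kif23 was at -1.28, -0.63 and -1.29 in WT GFP of A384T mice, -1.66, -1.25 and -1.82 in A384T, -1.17, -1.02 and -1.42 in I363V and -1.03, -1.18 and -1.33 in R397W. On the chosen probe set every Treg array was thus below Tconv for Kif23, and its deviations from group means followed those of the other members (r = 0.87).

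The remaining members are given by their group means. Over the 7 groups, WT hCD2 had the highest mean for 20 of 47 members and 13 of 23 mitosis genes, and A384T the lowest for 18 of 47 and 13 of 23; Tconv was lowest for 24 members, 12 of them S phase genes. Aurkb, the kinase of the chromosomal passenger complex, ran from 0.00 in Tconv to 0.65 in WT hCD2. Cenpe, a kinetochore kinesin, ran from -0.40 in A384T to 0.41 in WT hCD2, and Prc1, which bundles the midzone microtubules, from 0.00 in Tconv to 0.63 in WT GFP. Plk1, a kinase of mitotic entry and exit, varied by 0.30 between groups, Aurka, the spindle pole kinase, by 0.29, Foxm1, the factor that drives late cycle genes, by 0.22, and Cenpa by 0.57. Of the S phase genes, Ccne1 (cyclin E1) varied by 0.27, Mcm2 by 0.25, Rrm1, the large subunit of ribonucleotide reductase, by 0.51, Mcm7 by 0.71 and Mcm3 by 0.73; Tyms ran from 0.00 in Tconv to 0.64 in WT GFP of A384T mice. E2f1, itself an E2F target, varied by 0.30. These ranges compare with SDs within groups of 0.15 for Foxm1, 0.24 for Aurka and 0.76 for Mcm3.

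Some members rest on probe sets that disagree. The chosen probe set of Mcm4 correlated with the other one of that gene at -0.11 over the arrays, and those of Tyms with the other 3 at -0.27 to 0.36. The other 4 probe sets of Mcm3 ran from -0.40 to 0.65 against the chosen one. Members called in some fit also had low values: Nusap1 0.10, Top2a -0.005 to 0.525 and Mcm6 -0.11 to 0.55. Those of Kif11 (0.29 to 0.89), Cdt1 (0.31 to 0.69) and Kif23 (0.43 to 0.55) were higher. The size still differed for Kif23 in wild-type Treg cells against Tconv, at -1.05 for the chosen probe set and -0.42 for the mean of all 3. Chek1 (-0.04 to 0.94), Mcm5 (-0.03 to 0.66) and Rrm1 (-0.05 to 0.84), among others, also held a probe set that did not follow the chosen one. The probe sets of Ccna2 (0.91), Aurkb (0.89), Bub1b (0.73 to 0.92) and Rrm2 (0.80) ran together. Cdc25b, Tk1 and Mki67 each have 1 probe set assigned to them alone and cannot be checked in this way.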

How the data were processed

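RNA of 18 sorted T cell samples in 7 groups had been labelled in 2 rounds and hybridised to Affymetrix mouse arrays, per the labels' protocols. The authors deposited log2 values of 45101 probe sets; RMA is named in the submitters' processing notes, with no version given. In the deposited values the 2 Tconv arrays average 0 at every probe set, to within 1e-06, so absolute intensities and detection cannot be read. The base of the logarithm is taken from RMA's usual output. Array medians lay between -0.06 and 0.02.

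Of the probe sets, 34945 were assigned to 1 gene by the chip annotation, 932 to several and 9211 to none, and 13 controls were set aside. For each of 18193 genes the probe set of largest variance over all arrays was used. Group means were fitted with limma 3.58.1 in R 4.3.3 on all 18 arrays (11 residual degrees of freedom), with Benjamini-Hochberg adjustment over all genes and a threshold of 0.05. Fits with a block used only the arrays of the groups compared. They left fewer residual degrees of freedom, and their SEs lean more on the variance shared across genes. The number of arrays limits the precision. On data simulated for wild-type Treg cells against Tconv, a log2 change of 1 was recovered in 82.0% of genes and 0.5 in 21.6%. For A384T against WT hCD2 these shares were 76.8% and 16.0%. They are taken over all 18193 genes, and recovery was not estimated for the members. The pooled SD of a member within groups ran from 0.15 for Foxm1 to 0.87 for Rrm2. The members and lists were chosen with earlier results of these data known.

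Named were all called members and, in each comparison, the 4 S phase, 4 mitosis and 2 G1 genes of largest difference; values by array are given for called members and a fixed set of others. Equal numbers in A384T and WT GFP of A384T mice paired the arrays by the data alone (correlations of deviations 0.69, 0.65 and 0.58 over all genes, and -0.46 to -0.16 for unequal numbers). Alternatives were the mean of all probe sets, leaving out cross-hybridising probe sets, the compared groups alone, arrays centred on their median, a robust fit, the number as a block, also within A384T mice for the interaction, and each array left out.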

Additional observations from a re-analysis of the deposited data

Results flagged for a closer look

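Cdt1, the licensing factor, differed between 2 mutants when the test of the difference itself was made: it was lower in A384T than in R397W by a log2 difference of -0.77 (limma adjusted p = 0.0248), with all 3 A384T arrays below all 3 R397W arrays. The call was lost in 5 of 6 fits that left out 1 array (limma adjusted p from 0.0545 to 0.102) and with the compared groups alone (limma adjusted p = 0.0871). With the number as a block the limma adjusted p was 0.139, but equal numbers did not pair these arrays, so that fit does not bear on the call. Groups of 2 or 3 arrays, which are all groups of the study, were not tested for single arrays that stand apart.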

How the results depend on the processing

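The arrays per group are few, array levels and detection are unknown, and single arrays decide several calls. Arrays centred on their median and a robust fit left every count of called members as it was. For wild-type Treg cells against Tconv, 1 member was called higher with the mean of all probe sets and with WT GFP or WT hCD2 alone, and 5 with the compared groups alone; leaving out single arrays gave 1 to 2 higher and 0 to 1 lower. With the replicate number as a block, WT GFP against Tconv had 30 members higher and 2 lower, beside 2236 and 1111 of all genes (12.3% and 6.11%); with 2 pairs, this pairing is not established. For R397W against WT hCD2, 0 members were lower with the compared groups alone, and 0 to 2 with arrays left out; the second was Cdkn2c. The interaction had 1 member lower with the compared groups alone and 0 with the replicate block within A384T mice. A384T against R397W had 0 members lower with the compared groups alone and with the replicate block, and 0 to 1 lower and 0 to 1 higher (Cdkn2c, without R397W array 1) with arrays left out.

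The replicate block took the count for A384T against WT GFP of A384T mice from 1 to 14 members lower. Over all genes it went from 31 to 330 higher and from 64 to 622 lower. Leaving out single arrays without the block left 1 member, and leaving out pair 1, 2 or 3 with it left 13, 12 or 7. For mutants against each other the numbers did not pair the arrays, and with the replicate block 0 members were called in each comparison, with 23 higher and 6 lower of all genes for A384T against I363V, 42 and 6 against R397W, and 1 and 0 for I363V against R397W. The mutant and WT hCD2 cells come from mice of different genotypes and share fewer than 2 array numbers, so no paired fit was made between them. With the compared groups alone, the count over all genes was 195 lower for Treg cells against Tconv, 4 higher and 6 lower for A384T, 8 and 26 for I363V and 3 and 29 for R397W, each against WT hCD2.

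With arrays left out, the median over members turned for WT hCD2 minus WT GFP (-0.18 to 0.40), WT GFP of A384T mice minus WT GFP (-0.54 to 0.14) and I363V minus R397W (-0.22 to 0.13). Directions also turned for single members that had not passed the test. WT hCD2 minus WT GFP became -0.012 for Uhrf1 with the mean of all probe sets, and WT GFP of A384T mice minus WT GFP became 0.002 for Mcm4 without cross-hybridising probe sets. With arrays left out, WT hCD2 minus WT GFP ran from -0.014 to 0.66 for Gins1, -0.17 to 0.97 for Ccna2, -0.44 to 1.23 for Mki67, -0.50 to 1.21 for Ccnb2, -0.17 to 0.74 for Cdc20 and -0.92 to 0.018 for Ccnd3. WT GFP of A384T mice minus WT GFP ran from -1.26 to 0.18 for Cdc6, -1.04 to 0.002 for Bub1 and -1.0 to 0.082 for Tpx2, and the interaction from -1.20 to 0.25 for Cdc6. Against WT hCD2, Ccne2 ran from -1.34 to 0.20 in I363V and Rrm2 from -1.07 to 0.032 in R397W. A384T minus WT GFP of A384T mice ran from -1.24 to 0.035 for Rrm2 and -0.14 to 0.40 for Ccnd3. Between mutants, A384T minus I363V ran from -1.11 to 0.019 for Cdkn1a and A384T minus R397W from -1.13 to 0.10 for Mcm3. I363V minus R397W ran from -0.85 to 0.25 for Rrm2, -0.55 to 0.051 for Kif20a and -0.066 to 0.58 for Mcm4. Apart from arrays left out, the cause was not tested.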
